A study of Homo sapiens with 2 samples.

Results

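Aminoacyl tRNA synthetases are the enzymes that charge each tRNA with its amino acid, so that the ribosome can read the genetic code. The cytosol and the mitochondrion each need a full set of charged tRNAs. Most amino acids are served by separate nuclear genes for the 2 compartments, the mitochondrial one carrying the suffix 2. Several cytosolic synthetases are held in a large multisynthetase complex by scaffold proteins of the AIMP family, and a few genes, among them KARS and GARS, make both the cytosolic and the mitochondrial enzyme. The genes described here are 38 of the 16645 annotated genes with a read, chosen by symbol alone: 20 cytosolic synthetase genes, 16 mitochondrial synthetase genes and the scaffold genes AIMP1 and AIMP2. All 38 had reads in both libraries, and their reads fell on 1848 of the 237608 transcript models in the table.

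The reads came from GM12878, an established B-lymphoblastoid line made by transforming B cells with Epstein-Barr virus. Native RNA strands were threaded through Oxford Nanopore flow cells, without amplification, in 2 replicate libraries, which form 1 untreated group, with no second genotype, treatment or time. Nothing in the labels says that the replicates came from separate cultures, so a p-value between them measures only the difference between these 2 libraries, which may be technical. Replicate 1 held 1360368 reads and replicate 2 held 1510998, so that 1 read was worth 0.735 and 0.662 CPM, counts per 1000000 reads. All 8 B cell markers examined were read in both libraries, from PAX5 with 54 and 70 reads up to CD74 with 10565 and 12221, while 7 markers of other lineages had 0 to 16 reads. A strand gives 1 read whatever its length, so CPM counts molecules that reached the pore and was not divided by gene length. Levels in these cells cannot be separated into the number of cells and the amount of RNA per cell.

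The 3 sequences that follow are shown because they mark where the cytosolic and mitochondrial proteins of the dual-purpose genes part. They are reference sequences from GENCODE release 29 on GRCh38, read 5′ to 3′ on the strand of the gene, with in-frame start codons in capitals. In KARS, on the minus strand of chromosome 16, the model KARS-201 begins its coding sequence in exon 1 (chr16:75647578-75647639), and KARS-202 inserts another exon and begins there (chr16:75644283-75644428). From the next exon on, the models share 13 coding exons. The third stretch comes from exon 1 of GARS on the plus strand of chromosome 7 (chr7:30594922-30595086), where 1 mRNA carries an upstream start codon, used as background knowledge for the mitochondrial enzyme, and the next in-frame one, used for the cytosolic enzyme.
KARS-201, first coding exon: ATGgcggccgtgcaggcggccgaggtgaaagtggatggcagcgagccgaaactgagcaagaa
KARS-202, first coding exon: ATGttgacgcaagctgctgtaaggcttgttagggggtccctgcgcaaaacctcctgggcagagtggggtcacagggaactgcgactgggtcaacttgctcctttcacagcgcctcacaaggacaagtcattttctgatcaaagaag
GARS-201, first to next in-frame start: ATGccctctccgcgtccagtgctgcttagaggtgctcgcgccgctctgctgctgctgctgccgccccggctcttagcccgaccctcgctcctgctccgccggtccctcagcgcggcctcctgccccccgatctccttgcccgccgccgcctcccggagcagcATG
The KARS stretches hold 62 and 146 coding bases, and the whole coding sequences encode 597 and 625 amino acids. In GARS, 54 codons lie before the second start, of 739 in all.

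Together the 38 genes received 3237 CPM in replicate 1 and 3079 CPM in replicate 2. The 20 cytosolic genes took 2624 and 2520 CPM (2572 ± 74.1, SD, n = 2), the 16 mitochondrial genes 459 and 441 CPM (450.1 ± 13.2, SD, n = 2), and the scaffold genes 154 and 119 CPM (136 ± 24.4, SD, n = 2). A cytosolic gene had a median level of 114 CPM and a mitochondrial gene one of 26.4 CPM, 4.31 times lower. For 13 amino acids both a cytosolic and a mitochondrial gene were among those examined, and the cytosolic level was the higher one in both libraries in 12 of them, with ratios of the mean levels from 0.779 to 15.7 and a median of 3.79. The widest gap was that of tryptophan: WARS stood at 297 and 318 CPM and WARS2 at 20.6 and 18.5 CPM. Cysteine was the exception. CARS had 47.8 and 55.6 CPM and its mitochondrial counterpart CARS2 had 69.1 and 63.5 CPM.

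**Figure D1:**
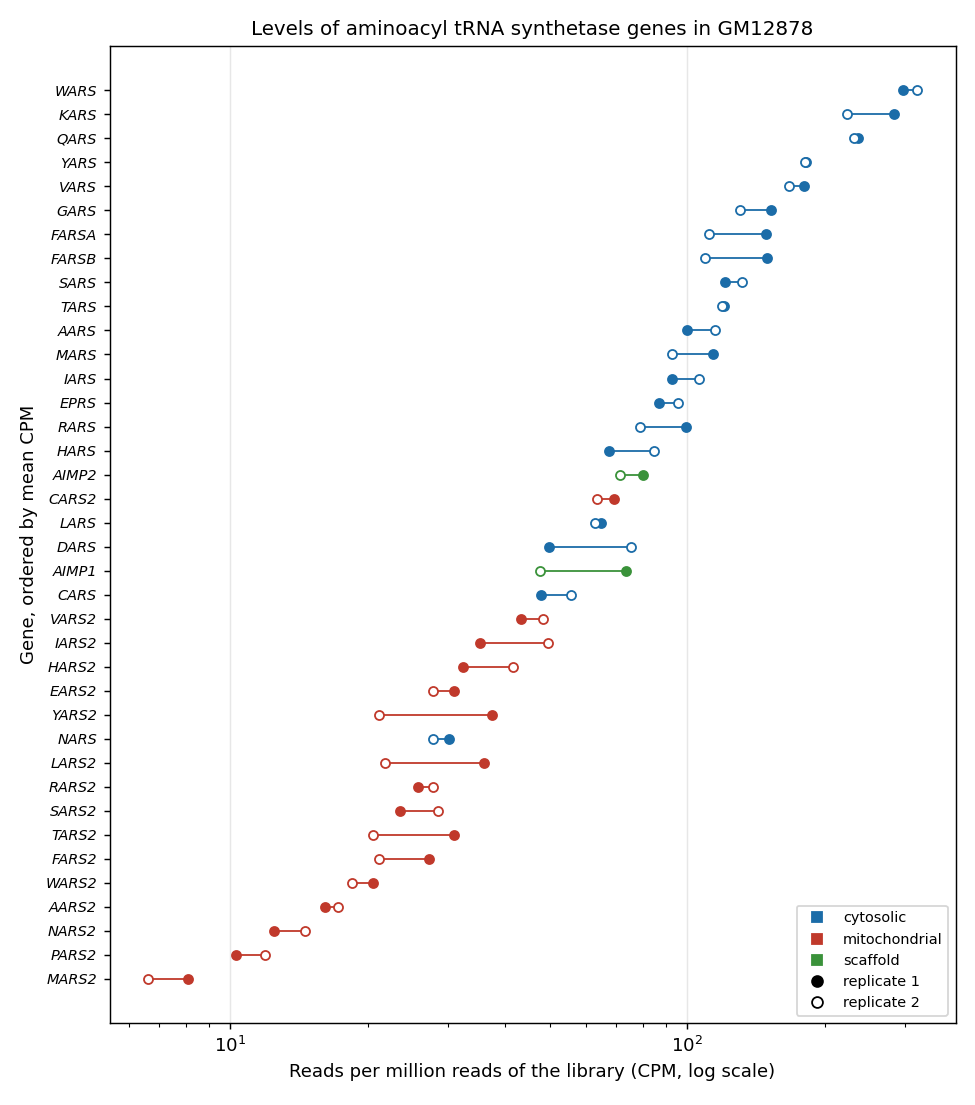
Level of each of the 38 genes in CPM on a log scale, with filled circles for replicate 1 and open circles for replicate 2, coloured by cellular compartment. Mitochondrial genes occupy the lower part, and 4 cytosolic genes, LARS, DARS, CARS and NARS, lie below CARS2, the highest of the mitochondrial ones.

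WARS (ENSG00000140105), which charges tryptophan and is well known as a gene induced by interferon gamma, was the most abundant, with 404 and 481 reads, 308 CPM ± 15.1 (SD, n = 2) and rank 412 among all genes. It lies on the minus strand of chromosome 14 (chr14:100333788-100376805, GRCh38). Its first place rests on genomic reads, defined below, of which WARS had 181 and 311 and KARS 5 and 17. Without genomic reads, KARS stood above WARS in both libraries. KARS, the lysine enzyme, followed with 283 and 224 CPM. QARS, which charges glutamine, had 237 and 232 CPM. KARS and QARS, with means of 253 ± 41.9 and 234 ± 3.11 CPM (SD, n = 2), did not differ beyond the spread of KARS. The next places were held by YARS (tyrosine) at 182 and 181 CPM, VARS (valine) at 180.1 and 167 CPM, and GARS (glycine) at 153 and 130.4 CPM.

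FARSA (chr19:12922479-12934037, minus strand) and FARSB (chr2:222570536-222656337, minus strand) encode the 2 kinds of subunit of the cytosolic phenylalanine enzyme, which is assembled from equal numbers of each. Their levels lay close together in each library. FARSA had 202 and 169 reads, 148 and 112 CPM, and FARSB had 203 and 165 reads, 149 and 109 CPM. SARS (serine) with 121 and 132 CPM and TARS (threonine) with 121 and 119 CPM completed the highest 10.

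The 8 synthetase genes of the multisynthetase complex, EPRS, IARS, LARS, MARS, QARS, RARS, KARS and DARS, together with AIMP1 and AIMP2, spanned mean levels from 60.6 to 253 CPM, with a median of 90.0 CPM. The 12 cytosolic synthetase genes outside the complex spanned 28.97 to 308 CPM, with a median of 128 CPM. AIMP1, the scaffold that is also secreted as a cytokine precursor, had 100 and 72 reads, 73.5 and 47.7 CPM. AIMP2, the scaffold at the core of the complex, had 109 and 108 reads, 80.1 and 71.5 CPM. The third scaffold gene, EEF1E1, which encodes AIMP3 and is not one of the 38, had 72 and 71 reads, 52.9 and 46.99 CPM.

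The 16 mitochondrial genes were AARS2, CARS2, EARS2, FARS2, HARS2, IARS2, LARS2, MARS2, NARS2, PARS2, RARS2, SARS2, TARS2, VARS2, WARS2 and YARS2. Below CARS2, the next were VARS2 with 43.4 and 48.3 CPM, IARS2 with 35.3 and 49.6 CPM and HARS2 with 32.3 and 41.7 CPM. The range of IARS2 between the libraries overlapped those of VARS2 and HARS2. Of the 38 genes, 18 overlap a gene on the opposite strand that also had reads, HARS and HARS2 among them. Whether the counting used strand is not given in the sources used here, so reads of such a pair may be shared. The lowest levels of all were also mitochondrial. MARS2 (methionine) had 11 and 10 reads, PARS2 (proline) 14 and 18, and NARS2 (asparagine) 17 and 22. These 3 had fewer than 20 reads in at least 1 library and were left out of the comparison of read categories. NARS, the cytosolic asparagine enzyme, had only 41 and 42 reads, 30.1 and 27.8 CPM, the lowest level of the cytosolic genes. It was singled out after its values were seen.

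The gene totals differed little between the libraries. The log2 ratio of replicate 2 to replicate 1 stayed between -1 and 1 in all 38 genes, from -0.82 for YARS2 to 0.59 for DARS, with a median of -0.03 against 0.01 over all genes tested. In the exact binomial test of the reads, adjusted over all 10634 genes with at least 10 reads, 1 of the 38 had an adjusted p under 0.05, beside 5.05% of all genes tested (2.72% higher and 2.33% lower in replicate 2). That gene was KARS, whose 385 and 338 reads put it lower in replicate 2, at a log2 ratio of -0.34. Its adjusted p was 0.0374 in the exact binomial test. With no minimum read number its adjusted p was 0.0585 in the same exact test, and the count was then 0. FARSB had a log2 ratio of -0.45 and an adjusted p of 0.0546 in the exact binomial test, and with TMM scaling, edgeR's trimmed mean of M-values, its adjusted p was 0.0365. Without adjustment, 7 of the 38 had a p under 0.05, 1 of them higher and 6 lower in replicate 2, beside 15.8% of all genes. When reads in known models alone were counted, 12 of the 32 genes with enough reads differed in the exact binomial test, all lower in replicate 2, beside 18.8% of all genes tested in that way. That test used the totals of known reads in place of the library totals.

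What the reads of a gene were assigned to changed far more than how many there were. A known model matches an annotated transcript through all its splice junctions. An ISM model, an incomplete splice match, covers only a consecutive part of those junctions. In the 38 genes together, known models held 1547 of 4404 reads in replicate 1, 35.1% (Wilson 95% interval 33.7 to 36.5%), and 776 of 4653 in replicate 2, 16.7% (15.6 to 17.8%). ISM models held 42.7% (41.3 to 44.2%) and 61.4% (60.0 to 62.8%). Over all annotated genes, known models held 56.5% and 46.4% and ISM models 24.1% and 32.3%. Intervals cover counting error only.

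Known shares ranged widely among the genes. In replicate 1 the highest were 74.5% in YARS2 and 72.5% in AIMP2, and the lowest were 4.76% in IARS and 5.08% in VARS2, among the 35 genes with at least 20 reads in each library. The median over these 35 genes was 29.6% in replicate 1 and 12.9% in replicate 2, beside 32.5% and 17.5% over the 6340 genes of the whole table that met the same minimum. The known share was lower in replicate 2 in 34 of the 35 genes, and in 79.4% of all 6340 genes. The median difference was -15.8 percentage points in the 35 genes and -8.62 over all genes. The 6340 genes include some with no known read in either library, whose share cannot be lower, while all 35 genes had known reads. Such genes also enter the medians over all genes and the share of all genes that passed the test below.

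**Figure D2:**
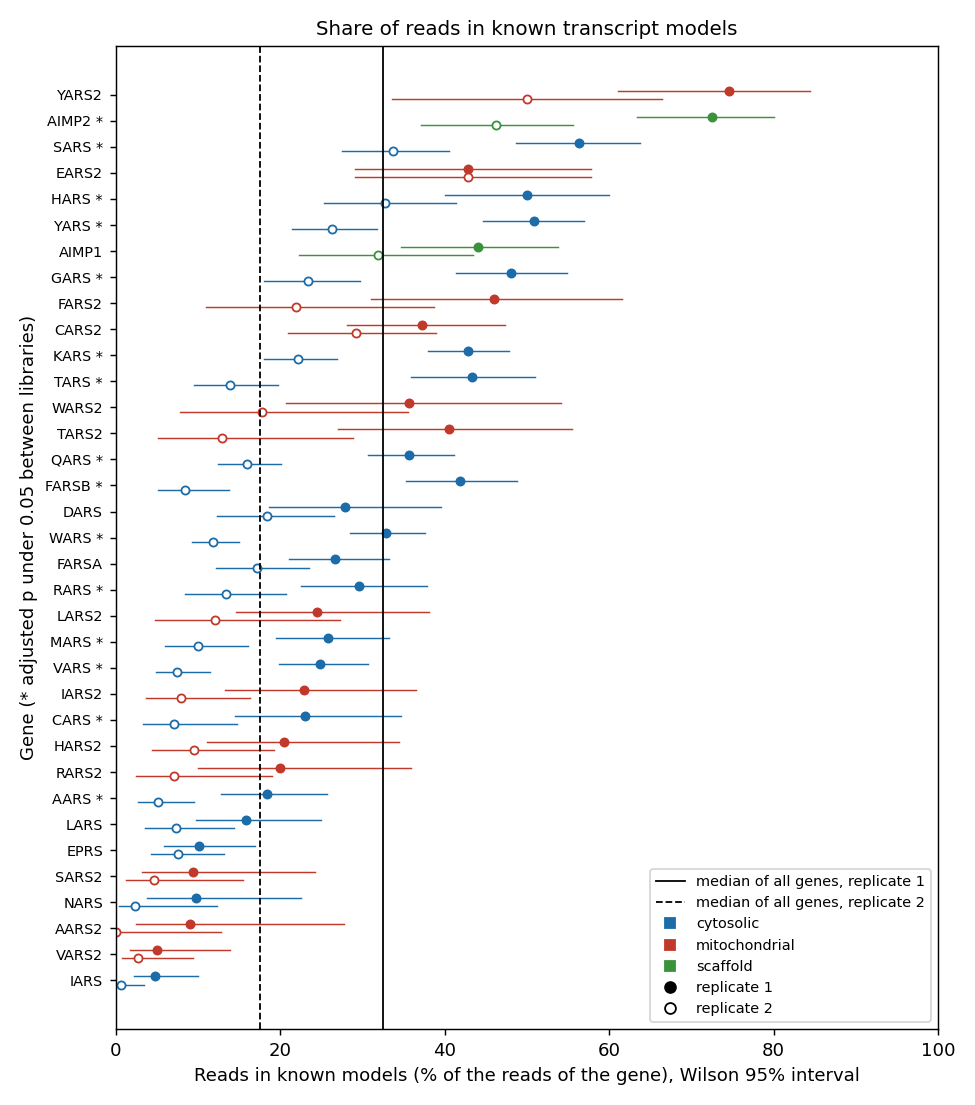
Share of the reads of each gene that lay in known models, with Wilson 95% intervals, for the 35 genes with at least 20 reads in each library; filled circles are replicate 1 and open circles replicate 2. The open circle lies to the left of the filled one in 34 genes, EARS2 being the exception, and vertical lines give the medians of all genes, 32.5% and 17.5%.

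In Fisher's exact test of known against other reads, 15 of the 35 genes (42.9%) had an adjusted p under 0.05, beside 27.1% of all genes tested. All 15 were lower in replicate 2, where 26.9% of all genes passed with a lower and 0.268% with a higher share. They were WARS, KARS, QARS, YARS, VARS, GARS, FARSB, SARS, TARS, AARS (alanine), MARS (methionine), RARS (arginine), HARS (histidine) and CARS among the 20 cytosolic genes, and AIMP2. With no read minimum, 13 of 38 genes passed, beside 10.6% of all genes. CARS and HARS then had adjusted p of 0.0684 and 0.0940 in Fisher's exact test. With at least 50 reads in each library, the same 15 passed of 23 tested, beside 45.6% of all genes. The share that passes thus depends on the reads per gene, which were not matched here. FARSB had the largest of these 15 differences. Known models held 85 of its 203 reads in replicate 1, 41.9%, and 14 of 165 in replicate 2, 8.48%. Fisher's exact test gave it an adjusted p of 5.36e-12. TARS fell from 43.3% to 13.9% and GARS from 48.1% to 23.4%. Of the 13 mitochondrial genes tested, 0 passed in Fisher's exact test, and 4 had an unadjusted p under 0.05. They had 22 to 94 reads in replicate 1, against 41 to 404 in the 20 cytosolic genes, so a difference of this size was harder to detect in them. Whether the compartments differ in this respect was not tested.

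Transcript length accompanied these shares. Genes with a known read were divided into 4 equal parts by the read-weighted length of their known models. Of the 35 genes, 2 fell in the shortest part, 11 in the second (from 1425 bases), 12 in the third (from 2178 bases) and 10 in the longest (from 3318 bases). In the second part the median known shares were 42.9% and 22.2% for the synthetase genes and 44.0% and 26.4% for all genes. In the third they were 34.3% and 12.4% beside 28.6% and 13.7%, and in the longest 20.6% and 7.44% beside 16.8% and 6.06%. In the shortest part the 2 synthetase genes had medians of 40.9% and 25.5%, against 69.7% and 57.2% for all genes. SARS2 fell there because its only known model with reads was a retained intron of 690 bases, while its annotated coding reference has 1630. Short noncoding models lower this length in other genes too, as in EPRS, with 2439 bases against 5014 in its coding model. In the other parts the medians of the synthetase genes lay within 6 percentage points of those of all genes, while their median difference between the libraries was the larger one: -16.2 against -12.8 percentage points in the second part, -16.9 against -11.9 in the third and -12.8 against -8.16 in the longest.

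The subtype of the ISM models says which end of the annotated transcript they retain. Suffix models, which retain the 3′ end, held 86.8% and 83.7% of the ISM reads of the 38 genes, against 68.4% and 68.0% over all annotated genes. Prefix models, which retain the 5′ end, held 5.95% and 4.45%. Models that were suffix and prefix at once made up 2.02% and 3.01%, against 10.3% and 10.2% over all genes.

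For each of the 37 multi-exon genes, the annotated coding model with the most reads served as the reference, and reads were counted in models with at least as many exons. SARS2 had no read in a known coding model, and its annotated model with the longest coding sequence, of 17 exons, was used. The median over genes was 38.1% in replicate 1 and 13.7% in replicate 2, and the share was lower in replicate 2 in 36 of the 37. This count was not compared with all genes, of which 79.4% had a lower known share in replicate 2. In the 6 genes with 2 to 7 exons the medians were 58.9% and 37.2%, in the 16 genes with 9 to 17 exons 37.3% and 15.4%, and in the 15 genes with 18 to 34 exons 28.8% and 9.33%. These bins were set after the data had been seen.

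AIMP2 and the long synthetases of the complex are given as examples. AIMP2 has 4 exons, and 78.9% of its reads in replicate 1 and 54.6% in replicate 2 lay in models with at least 4. EPRS encodes the fused enzyme for glutamate and proline in 32 exons. Its full-length coding model EPRS-201, of 5014 bases, had 8 reads in replicate 1 and 2 in replicate 2, of 118 and 144 reads of the gene. IARS (isoleucine) has 34 exons, and its only known model with a read, IARS-202 of 4656 bases, had 6 and 1. LARS (leucine) has 32 exons, and LARS-202 of 4766 bases had 13 and 2. VARS, with 30 exons, stood apart from them in replicate 1: VARS-215 of 4312 bases had 61 reads, 24.9% of the gene, and 19 reads, 7.51%, in replicate 2.

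**Figure D3:**
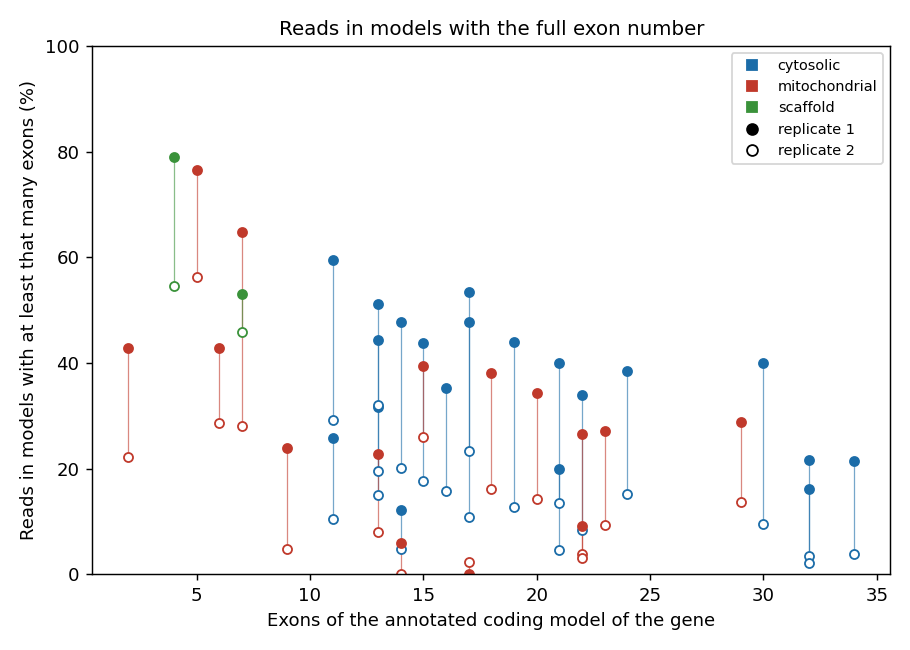
Share of the reads of each of the 37 multi-exon genes that lay in models with at least as many exons as the annotated coding model, plotted against that exon number, with filled circles for replicate 1, open circles for replicate 2 and a line joining the libraries. Genes with 18 to 34 exons reach at most 43.9% in replicate 1 and 16.1% in replicate 2.

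In KARS, the models that separate the compartments were both read. KARS-201, the 14-exon model that begins in the first exon shown above and encodes the cytosolic enzyme, had 127 and 44 reads. KARS-202, the 15-exon model whose start lies in the inserted exon and which encodes the mitochondrial enzyme, had 28 and 9, which was 16.97% and 12% of the known KARS reads (14.5% ± 3.51, SD, n = 2). Among the reads of these coding models, KARS-202 made up 18.1% of 155 (12.8 to 24.9%) in replicate 1 and 16.98% of 53 (9.20 to 29.2%) in replicate 2, a mean of 17.5% ± 0.766 (SD, n = 2). The exact 95% interval of the odds ratio between the libraries ran from 0.357 to 2.22, so the reads leave room for a difference within that range. This choice of denominator was made after seeing the data. Suffix ISM reads that lack the first exons carry no information on the form.

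The third KARS model, KARS-211, has 2 exons and 589 bases and is annotated as a retained intron. Its reads numbered 10, or 6.06% of the known KARS reads, in replicate 1 and 21, or 28.0%, in replicate 2. Relative use of the 3 known KARS models with at least 10 reads differed between the libraries (adjusted p of 0.000823 from an unadjusted p of 0.0001, the smallest that the permutation test of the reads can give). GARS, QARS, YARS and SARS passed as well. In all, 5 of the 9 genes tested passed, beside 26.1% of all genes tested.

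GARS has a single coding model with reads, GARS-201 of 17 exons, which carries both start codons shown above, so these reads cannot separate the forms. It had 88 reads, 88.0% of the known reads, in replicate 1 and 30 reads, 65.2%, in replicate 2, while the 2-exon retained-intron model GARS-209 had 6 and 10. In QARS, the 24-exon QARS-201 had 91 and 38 reads, the 23-exon QARS-209 had 17 and 4, and the 4-exon retained-intron model QARS-223 had 1 and 11. In YARS, the coding YARS-201 had 91 and 34 reads and the 2-exon YARS-209 had 6 and 18. In SARS, the coding SARS-201 had 87 and 52 reads and the 2-exon SARS-203 had 4 and 11 (adjusted p of 0.0443, Fisher's exact test). Over all 38 genes, annotated models that are not protein-coding took 7.63% (6.41 to 9.06%) and 22.4% (19.6 to 25.5%) of the known reads in the libraries. Their share was higher in replicate 2 in 15 of the 18 genes that had such reads, a count that was not compared with all genes.

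**Figure D4:**
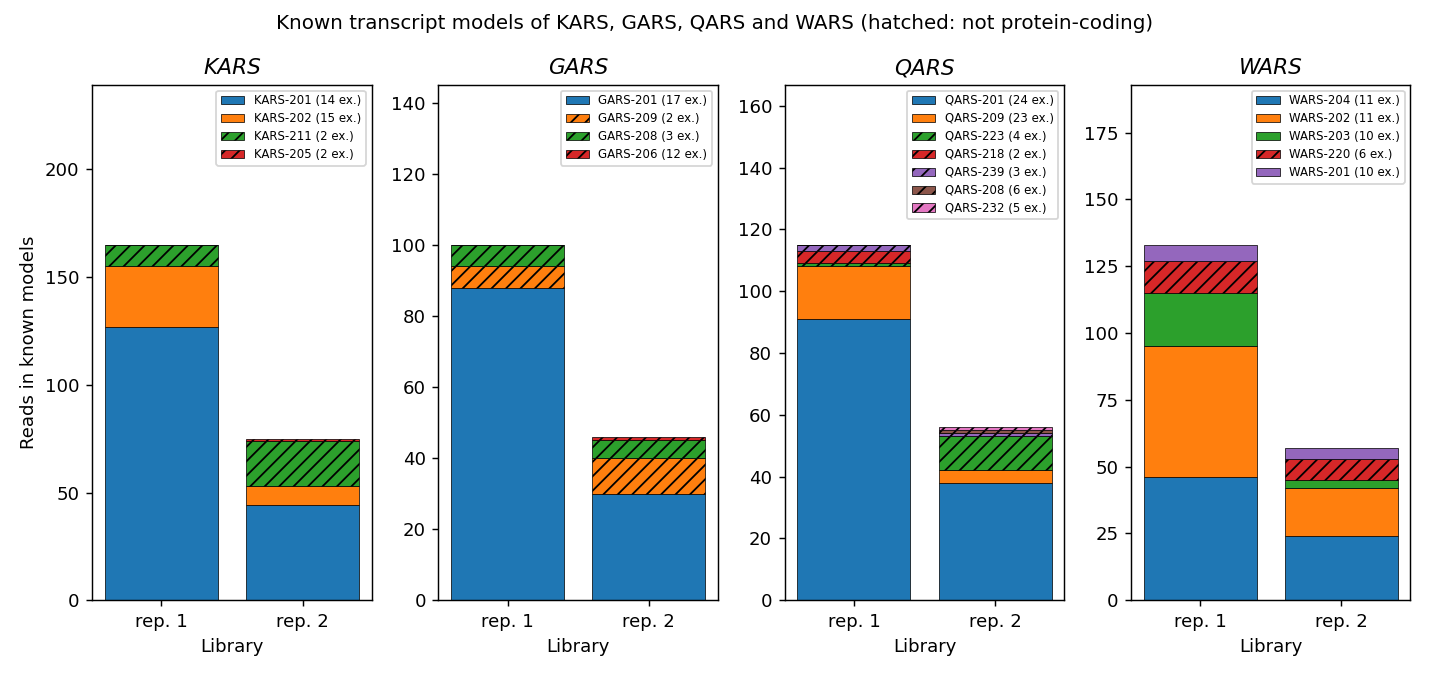
Reads in each known model of KARS, GARS, QARS and WARS in both libraries, stacked, with hatching for annotated models that are not protein-coding and the number of exons in the key; the vertical scales differ between genes. All coding models named in the text have fewer reads in replicate 2. Of the hatched models with at least 4 reads over both libraries, KARS-211, GARS-209 and QARS-223 have more, and GARS-208, QARS-218 and WARS-220 have fewer. Hatched models with fewer reads than that are not listed here.

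WARS is annotated with alternative first exons and with an exon 2 that is included or skipped. Exon 2 holds the start codon of the long form (chr14:100369087-100369185, minus strand, coding part), printed here because its presence separates the forms.
WARS-202 and WARS-204, coding part of exon 2: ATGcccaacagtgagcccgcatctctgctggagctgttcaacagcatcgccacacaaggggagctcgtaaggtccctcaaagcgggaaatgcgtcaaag
Models with this exon, WARS-202 and WARS-204, encode 471 amino acids, and models without it, WARS-203 and WARS-201, encode 430. WARS-204 had 46 and 24 reads, WARS-202 had 49 and 18, WARS-203 had 20 and 3, and WARS-201 had 6 and 4. Models that skip exon 2 made up 21.5% of 121 coding reads (15.1 to 29.6%) in replicate 1 and 14.3% of 49 (7.10 to 26.7%) in replicate 2, a mean of 17.9% ± 5.09 (SD, n = 2). Models that begin in the inner first exon, WARS-204 and WARS-201, made up 43.0% (34.5 to 51.9%) and 57.1% (43.3 to 70.0%). The exact 95% interval of the odds ratio between the libraries ran from 0.207 to 1.59 for skipping and from 0.859 to 3.67 for the inner first exon. WARS was not among the genes that passed the test of known model usage (adjusted p of 0.450, permutation test).

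Many WARS reads, 181 of 404 in replicate 1 and 311 of 481 in replicate 2, lay in models of a single exon. A genomic model, in the table's terms, overlaps the gene without matching its splicing, and 1 such model of WARS, a single interval of 692 bases, received 173 and 298 reads, which came to 42.8% and 62.0% of WARS. It was the most abundant of all 1848 models of the 38 genes in both libraries. When genomic models were left out and the totals of the remaining reads were used, the log2 ratio of WARS changed from 0.10 to -0.47. It then passed the exact binomial test (adjusted p of 0.0227). YARS had a genomic model of 712 bases with 55 and 106 reads, and NARS one of 695 bases with 28 of 41 and 30 of 42 reads. The annotated last exons of the reference models of these genes are 1249, 853 and 1128 bases long, longer than the intervals. The table holds no coordinates of the intervals, so whether they lie within those exons was not tested. WARS, NARS and WARS2 had more than 40% genomic reads in both libraries, 8.57% of the 35 genes, against 21.5% of all 6340 genes. That threshold was set after seeing the data.

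Single-exon reads were not filed under 1 category. In 20 of the 37 multi-exon genes the ISM and genomic reads in 1-exon models were all genomic, in 7 they were all ISM, and 10 had both. DARS, the aspartate enzyme, had 27 of 68 and 57 of 114 reads in an ISM model of 1 exon and 731 bases, exactly the length of its annotated last exon. AARS had such a model of 612 bases with 7 and 21 reads, and SARS one of 390 bases with 7 and 22 reads. In 8 of the 38 genes a single-exon ISM model had the length of the last exon to the base. EARS2 (glutamate) was the one gene whose known share was equal in both libraries, at 42.9%. There a 1-exon known model of 599 bases, annotated as a processed transcript, had 9 and 17 reads, while the 9-exon coding model had 8 and 1. The share of reads in 1-exon models was higher in replicate 2 in 30 of the 37 genes and lower in 6, with medians of 6.67% and 13.6%. These counts were not compared with all genes. DARS and EARS2 were chosen here after their values were seen.

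**Figure D5:**
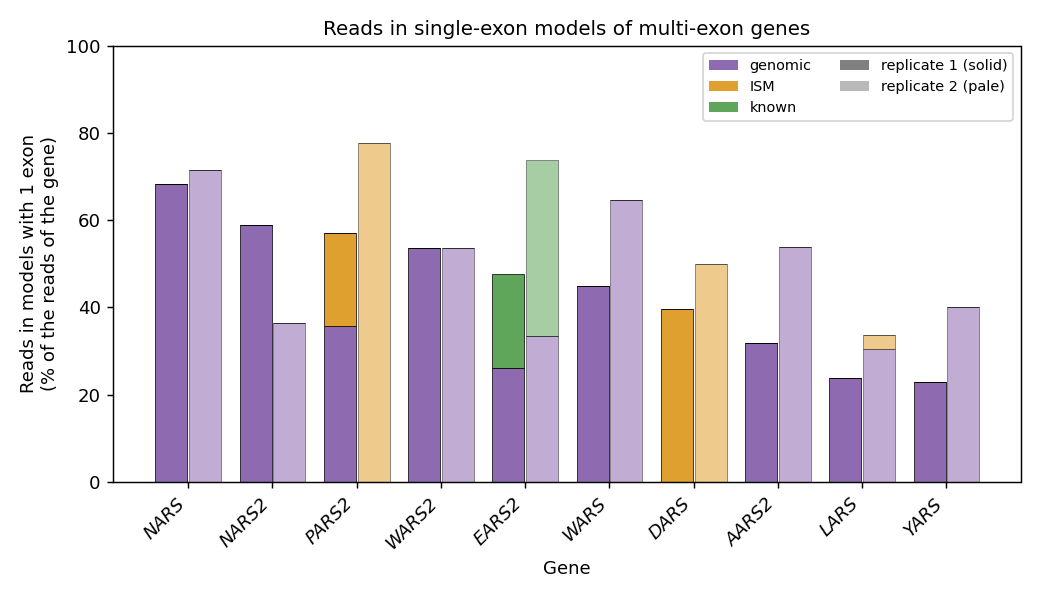
Reads in models with 1 exon as a percentage of the reads of the gene, for the 10 multi-exon genes with at least 20% in both libraries, coloured by category, with solid bars for replicate 1 and pale bars for replicate 2. In both libraries the reads are genomic in WARS, NARS, YARS, NARS2, WARS2 and AARS2, and ISM in DARS, while EARS2 is split between a genomic and a known model, LARS has 3 ISM reads in replicate 2, and PARS2 has ISM and genomic reads in replicate 1 and ISM reads alone in replicate 2.

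Unannotated splicing made a small contribution in most of these genes. NIC models, which join annotated splice sites in a new combination, held 5.70% and 3.14% of the reads. NNC models, which use at least 1 unannotated splice site, held 7.27% and 4.58%. Over all annotated genes, NIC models held 4.13% and 2.90% and NNC models 4.38% and 3.14%. SARS2, the mitochondrial serine enzyme, was the gene with the largest NIC share, 40.6% and 30.2%. Its most abundant model in both libraries was the NIC model ENCODEHT000460408, of 16 exons and 1923 bases, with 12 of 32 reads and 9 of 43, and its only known model with a read was a 2-exon retained intron. In VARS2, the mitochondrial valine enzyme, the NIC model ENCODEHT000563908 of 30 exons had 7 and 6 reads and was the most abundant model of the gene over both libraries summed. In AIMP2, the NIC model ENCODEHT000275685 of 4 exons had 9 and 9 reads. Among NNC models, the best supported across the libraries was ENCODEHT000302881 of GARS, of 17 exons and 2436 bases, with 12 and 5 reads. ENCODEHT000417924 of HARS had 4 and 2 reads and ENCODEHT000400596 of KARS had 3 and 2, and further models were tied at 2. The HARS model has 13 exons and 1944 bases, beside 13 exons and 1945 bases in the known HARS-215.

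A model with 1 read cannot be found in both libraries, and in the 38 genes the share of models with a single read was 16.9% (known), 52.8% (ISM), 82.3% (NIC) and 85.5% (NNC). Reads from both libraries fell on 66 of the 89 known models of the 38 genes, 74.2% (64.2 to 82.1%). For the other categories this was 37.2% (34.3 to 40.2%) of 1046 ISM models, 10.8% (7.56 to 15.3%) of 249 NIC models and 8.23% (5.95 to 11.3%) of 413 NNC models. Over all annotated genes it was 57.8%, 34.4%, 15.5% and 10.95%.

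The charged tRNA pool is tied to a stress pathway. When an amino acid is scarce, uncharged tRNA activates the kinase GCN2 (EIF2AK4), translation of the transcription factor ATF4 rises, and ATF4 with its C/EBP partners binds composite sites in target promoters, among them those of several synthetase genes. The 8-letter motif TGATGNAA was searched on both strands of RefSeq promoter windows (GRCh38.p14, 250 bases before to 50 after the gene start) with no other motif. Of the 38 genes, 32 matched a window by symbol, and DARS, LARS, VARS, YARS, AARS2 and VARS2 did not. The motif was present in 7 of the 32 (21.9%), beside 3.62% of all 35116 windows. The matches of the 6 cytosolic genes are printed with 9 bases on each side, in the direction of the gene and with the match in capitals, since they share 1 version of the motif.
AARS, chr16:70289677-70289702, minus strand: ttctcgcagTTGCATCAgccaagtta
CARS, chr11:3057409-3057434, minus strand: gggcggcggTTGCATCAgattctagg
IARS, chr9:92293694-92293719, minus strand: ttcagcgcgTTGCATCAcctccgtgc
MARS, chr12:57488055-57488080, plus strand: cggttccggTTGCATCAgcgagggat
NARS, chr18:57621806-57621831, minus strand: tacgctctcTGATGCAAcgccggaat
TARS, chr5:33440958-33440983, plus strand: gcctttcgaTTGCATCAgctggtcca
The match in YARS2, the only mitochondrial gene with one, had another base at the free position. In 5 of the 7 genes the match began within 20 bases of the RefSeq gene start that set the window. GENCODE starts of the models read here can lie elsewhere. Among those 5 genes, CARS-203 begins at chr11:3057613, MARS-201 at chr12:57487957, NARS-201 at chr18:57622173 and TARS-201 at chr5:33440776. The matches in these genes lie further downstream of those starts. The other known CARS model, CARS-201, begins at chr11:3057418, and IARS-202 at chr9:92293700, both close to the match. A match of letters does not show that a factor binds there, and these untreated libraries hold no comparison that bears on it. The mean levels of the 6 cytosolic genes ran from 28.97 CPM for NARS to 120 CPM for TARS.

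The genes of that response were read at low to moderate levels. ATF4 itself had 207 and 241 reads, 152 and 160 CPM, and EIF2AK4 had 23 and 27 reads. ASNS, the asparagine synthetase that ATF4 induces, had 57 and 65 reads. CHAC1, DDIT3 and SLC7A11, which are induced under strong stress, had 2 and 1, 5 and 4, and 4 and 2 reads. TRIB3 and SESN2, also on this list, had more, with 29 and 44, and 43 and 48 reads. Of the 13 genes of this list 10 were tested, and 0 passed in the exact binomial test between the libraries. An unadjusted p under 0.05 was found for 2 of the 10, beside 15.8% of all genes. The 15 genes that assist tRNA charging or carry its products had levels from 3.42 to 357 CPM, with a median of 25.3 CPM. TUFM, the mitochondrial factor that brings charged tRNA to the ribosome, was the highest with 496 and 529 reads, and XPOT, which exports tRNA from the nucleus, had 35 and 53. None of the 15 passed in the exact binomial test, with 0 at an unadjusted p under 0.05. GATB, GATC and QRSL1, the subunits that make mitochondrial glutaminyl tRNA by amidation in place of a separate mitochondrial glutaminyl tRNA synthetase, had 37 and 42, 30 and 40, and 39 and 33 reads.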

How the data were processed

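Raw counts of reads per transcript model were deposited by the authors as 1 table, whose 2 columns were matched to the replicates by title. The submitters' processing notes name minimap2 and hg38, and the file's name TALON; versions and filters are not given in the sources used here. The exon number and length of each model are other properties that the authors deposited. Positions, exons and sequences came from GENCODE release 29, whose identifiers match the known models. The promoter windows and the positions of their matches came from RefSeq on GRCh38.p14.

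Gene counts are sums over all models. CPM uses the library total. Where only some models were counted, log2 ratios and exact binomial tests used the totals of the reads kept instead. Between the libraries, gene counts were tested with a two-sided exact binomial test (at least 10 reads), known shares with Fisher's exact test on genes having 20 or more reads in each library, and use of known models having 10 or more reads with 10000 permutations of the reads, or with 2 models Fisher's exact test, each with Benjamini-Hochberg adjustment over all annotated genes tested and a threshold of 0.05. Log2 ratios add 0.5 reads. Scaling by edgeR 4.0.16 (TMM) and DESeq2 1.42.0 was tried. The scripts were first tested on simulated data.

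The genes and lists were chosen with earlier results of these data known. Values were given for the 10 highest and 3 lowest genes, those past a test, KARS, GARS, QARS, WARS and both AIMP genes, their leading models, and the 3 NIC and 3 NNC models with the highest minimum count.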

Additional observations from a re-analysis of the deposited data

How the results depend on the processing

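No paired analysis was possible because both libraries belong to 1 group. Each library on its own gave 2520 to 2624 CPM for the cytosolic, 441 to 459 for the mitochondrial and 119 to 154 for the scaffold genes, 12.9 to 29.6% for the median known share and 12 to 16.97% for KARS-202 among known KARS reads. With 2 libraries this says nothing about stability.

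Counting known models only, the summed levels were 644, 112 and 69.4 CPM, and without genomic models the cytosolic and mitochondrial sums were 2273 and 397 CPM. The number of the 38 genes that differed between the libraries was 2 with TMM scaling (5.21% of all genes tested), 0 with no read minimum (2.78%; 7 at an unadjusted p under 0.05 in the exact binomial test), 2 of 34 tested with at least 50 reads (9.62%), 4 without genomic models (8.26%) and 12 of 32 tested with known models only (18.8%). WARS reversed, with a log2 ratio of -0.47 without genomic models and -1.08 with known models only. These ratios and tests used the totals of the reads kept, while the summed CPM above used the library totals. The genomic reads of WARS itself were removed by construction. With known models only all 12 were lower in replicate 2, and the median log2 ratio was then -0.86 in the members and -0.26 over all genes.

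The known share was lower in replicate 2 in 116 of 119 results per gene and alternative. Alternatives that changed only the read minimum leave the difference of each gene as it was, so their results repeat the main ones. Use of models differed in 17 of 21 genes when ISM, NIC and NNC models were counted, beside 51.6% of all genes tested. Recurrence of models between the libraries depended on the read minimum. Where a model counted as found in a library only with at least 2 reads there, the shares found in both were 53.0% (ISM), 20% (NIC) and 17.4% (NNC), and with at least 5 reads they were 63.8% (known), 49.0% (ISM), 37.5% (NIC), 33.3% (NNC) and 68.4% (genomic). At 5 reads the NIC and NNC shares rest on very few models and are imprecise. Of the NNC models, only ENCODEHT000302881 of GARS then counted as found in both libraries. Over all KARS reads KARS-202 took 4.97%. Other causes were not tested. Few reads per gene limit the mitochondrial genes most.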
